A study of Arabidopsis thaliana with 12 samples.

Results

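PRK (AT1G32060), NADP-MDH (AT5G58330) and PPDK (AT4G15530) encode enzymes of carbon metabolism whose activity is switched after they are made, the first pair through thioredoxin and the last through phosphorylation. The 3 genes were chosen by the probe annotation (a probe listed with exactly 1 gene) and by this known regulation, with earlier results of the same comparison in view. They are 3 of 689 named loci, each measured by 1 single-gene probe (3151 for PRK, 2697 for NADP-MDH, 349 for PPDK) among the 3439 probes of the array. Because values of the comparison were known when they were chosen, their differences between the groups are a description, with intervals as a measure of spread and with no test.

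Total RNA of wild-type Arabidopsis thaliana plants, ecotype Columbia 0, was measured on 12 arrays in 2 groups of 6. In the staurosporine group, 4 h of water were followed by 4 h of staurosporine, a broad inhibitor of protein kinases. Plants of the ascorbate group were given staurosporine for 4 h and then 25 mM ascorbate (vitamin C, an antioxidant) for 4 h, and pH 5.5 is stated for both groups. Both groups thus received staurosporine, at different times, and no group without it was analysed here. The staurosporine dose is labelled as 2 µM where ascorbate followed and as 25 mM where water came first, a figure that equals the ascorbate dose, so whether the staurosporine doses differed is not known. Timing, dose and ascorbate cannot be told apart in this comparison. No label says which organ was taken or whether the arrays stand for separate plants.

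PRK phosphorylates ribulose 5-phosphate with ATP and so renews the CO2 acceptor of the Calvin-Benson cycle. In the light it is activated when thioredoxin, reduced by photosynthetic electron transport, opens a disulfide bond, and in the dark it is held inactive together with glyceraldehyde 3-phosphate dehydrogenase by the small protein CP12. NADP-MDH reduces oxaloacetate to malate with NADPH in the chloroplast stroma, and is inactive until thioredoxin has reduced its regulatory disulfides. The malate leaves the chloroplast and carries reducing power out of it, a route known as the malate valve. PPDK interconverts pyruvate and phosphoenolpyruvate, and is inactivated when a regulatory protein phosphorylates a threonine of its active site. In maize and other C4 plants it forms the primary CO2 acceptor, and in Arabidopsis, a C3 plant, chloroplast and cytosolic forms are made from 1 gene. The arrays measured transcript abundance and gave no reading of the redox state or the phosphorylation of the enzymes.

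The deposited intensities are in relative units between 0 and 100, and 10.3% to 17.3% of the probes of an array were listed at 0. On 9 of the 12 arrays the highest value was 100 after rounding. Whether each array had been scaled to its highest value is not known, so deposited levels may not be raw brightness. The median intensity of an array was 0.169 to 0.486. Array medians were higher in the ascorbate group in each set of consecutive arrays, by 0.15 log2 units for arrays 1 and 2, 1.04 for arrays 3 and 4, and 1.09 for arrays 5 and 6. Levels are therefore given in 3 ways, as deposited intensity, as rank within the array (the percentile among 3438 features, which no rescaling of an array changes), and as log2 values after quantile normalization, which gives all arrays the same distribution. Within a group, consecutively numbered arrays were close (Spearman correlation 0.889 to 0.983 across features), so group levels are the mean ± SD of 3 pair averages. Differences by pair match the arrays of both groups by number, a pairing that the labels do not state. Of 6 marker genes of photosynthetic tissue, 4 had a single-gene probe, and none of them read 0 on any array. Among these 4, PSBW, a subunit of photosystem II, ranked at the 99.9th percentile on each array. LHB1B2 ranked at 82.9 to 92.2, PSBY at 57.3 to 84.7 and PSAN at 53.4 to 68.9. Their summed intensity was 60.2 to 94.4 on the staurosporine and 36.9 to 77.5 on the ascorbate arrays. That sum rests mainly on PSBW and does not show that all 4 differed alike. In bulk RNA, fewer cells of a type and less RNA per cell cannot be told apart. None of the 3 carbon enzyme genes read 0 on any array, so the value set for zeros does not enter their readings.

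Of the 3 transcripts, NADP-MDH was higher with ascorbate than with staurosporine alone in each pair of arrays and on each scale, by 2.23 log2 units in deposited intensity (95% interval 1.20 to 3.25) and by 1.45 after normalization (95% interval 0.60 to 2.31). These intervals count all 12 arrays as separate samples. Over pair averages they were wider, at 0.52 to 3.93 for deposited intensity and −0.0082 to 2.91 after normalization. PPDK was lower with ascorbate relative to the other transcripts of the same array, with a rank difference of −13.7 ± 2.72 percentile points (SD, n = 3 pairs), while its deposited intensity was lower in 1 pair and higher in the others. PRK overlapped between the groups and took either sign, depending on the scale.

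NADP-MDH read 0.0482 to 0.33 on the staurosporine arrays (median 0.152) and 0.517 to 0.765 on the ascorbate arrays (median 0.589). All 6 ascorbate readings lay above all 6 staurosporine readings. The pair averages gave 0.166 ± 0.123 with staurosporine and 0.621 ± 0.0899 with ascorbate (SD, n = 3). Over all 3438 features, 13% likewise had every ascorbate array above every staurosporine array in deposited intensity, so such a gap was frequent. The arrays also differed in scale in that direction, as their medians show.

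The gap was present on the scales that do not depend on array brightness, though it was narrow there. By rank within the array NADP-MDH lay between the 21.1st and the 51.6th percentile with staurosporine and between the 53.3rd and the 77.7th with ascorbate. The lowest ascorbate rank, on array 5, was 1.72 percentile points above the highest staurosporine rank, on array 4. After quantile normalization the distance between these arrays was 0.077 log2 units. Of all features, 8.55% had every ascorbate rank above every staurosporine rank, and 8.52% had every normalized ascorbate value above every staurosporine value.

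**Figure D1:**
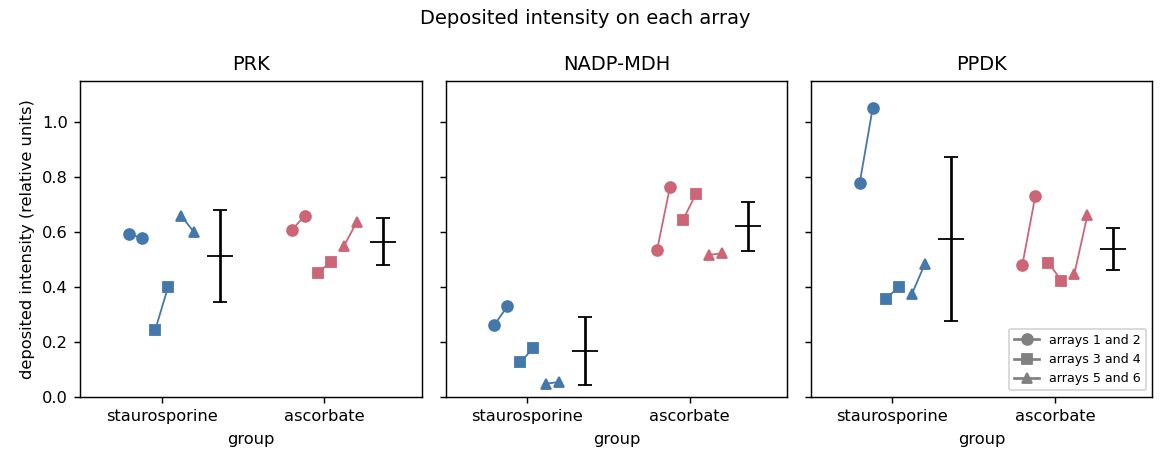
Deposited intensity in relative units (vertical axis, from 0) of PRK, NADP-MDH and PPDK on each of the 12 arrays, by group. Joined points are consecutive arrays, and the black bar is the mean ± SD of the 3 pair averages; NADP-MDH read 0.0482 to 0.33 with staurosporine and 0.517 to 0.765 with ascorbate, while the PRK and PPDK readings of the groups overlap.

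The 3 pairs of arrays differed in the size of the NADP-MDH difference on the deposited scale. On arrays 1 and 2 its average went from 0.296 with staurosporine to 0.65 with ascorbate (2.20-fold), on arrays 3 and 4 from 0.152 to 0.692 (4.55-fold), and on arrays 5 and 6 from 0.051 to 0.52 (10.2-fold). The spread came mainly from the staurosporine arrays, whose highest pair average was 5.80 times the lowest, against 1.33 times among the ascorbate pairs. Arrays 5 and 6 held the lowest NADP-MDH readings of the staurosporine group, at the 21.1st and 22.2nd percentile, where zeros filled the lowest 13.7% and 13.9% of probes. These are dim readings, and a fold against them is less certain than the others.

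By rank, the differences were closer to each other, at 25.4, 27.9 and 31.9 percentile points for the 3 pairs in the same order (mean 28.4 ± 3.28 SD, n = 3). The normalized log2 differences were 1.10, 1.18 and 2.07. Over the 12 arrays the limma estimate was 1.45 ± 0.39 log2 units (SE), with a 95% interval of 0.60 to 2.31. With the pair averages as the samples the interval was −0.0082 to 2.91. A block for the array number, which counts consecutive arrays as separate, gave 0.98 to 1.93. Same-numbered arrays gave a difference of 0.99 to 2.14 in all 6 numbers.

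PRK read 0.242 to 0.66 with staurosporine (median 0.586) and 0.451 to 0.659 with ascorbate (median 0.577). The groups overlapped almost fully, and the highest reading was about the same in both. The pair averages were 0.512 ± 0.167 and 0.565 ± 0.0843 (SD, n = 3). The staurosporine spread came from arrays 3 and 4, where PRK read 0.242 and 0.401 against 0.578 to 0.66 on the other staurosporine arrays. Those are the arrays with the lowest medians of the series, 0.173 and 0.169.

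By rank the PRK picture differed from that of the intensity. PRK lay between the 59.1st and the 78.2nd percentile with staurosporine and between the 56.5th and the 67.1st with ascorbate. The rank differences were 0.28 percentile points for arrays 1 and 2, −5.10 for arrays 3 and 4, and −16.8 for arrays 5 and 6 (mean −7.22 ± 8.75 SD, n = 3). The normalized difference was −0.31 ± 0.15 log2 units (SE, 95% interval −0.63 to 0.011), made up of 0.013, −0.21 and −0.73 in the 3 pairs. On the deposited scale it was 0.21 (95% interval −0.34 to 0.76) and after median centring −0.56 (95% interval −1.03 to −0.083), so its sign depended on the scale. Without arrays 5 and 6 of both groups, an alternative chosen after seeing the data, the normalized difference was −0.10.

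**Figure D2:**
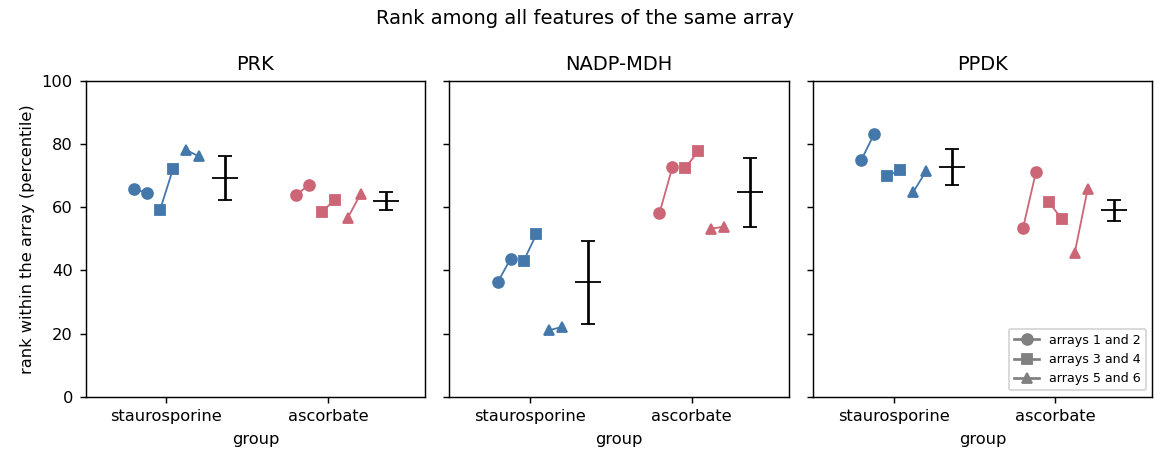
Rank of PRK, NADP-MDH and PPDK among the features of the same array (vertical axis, percentile from 0 to 100) on each of the 12 arrays, by group. Joined points are consecutive arrays and black bars the mean ± SD of 3 pair averages; NADP-MDH stands at 36.3 ± 13.2 and 64.7 ± 10.8, PRK at 69.3 ± 6.84 and 62.1 ± 2.91, and PPDK at 72.7 ± 5.74 and 59.0 ± 3.27 with staurosporine and ascorbate.

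PPDK read 0.357 to 1.05 with staurosporine (median 0.442) and 0.423 to 0.733 with ascorbate (median 0.485). The groups overlapped, and the pair averages were 0.574 ± 0.297 and 0.539 ± 0.0766 (SD, n = 3). The highest readings of the staurosporine group, 0.78 and 1.05, were those of arrays 1 and 2, and its other 4 arrays read 0.357 to 0.483. On arrays 1 and 2 the ascorbate average was 0.662 times the staurosporine average, while on arrays 3 and 4 it was 1.20 times and on arrays 5 and 6 1.30 times that average. The deposited log2 difference over the 12 arrays was 0.0048 (95% interval −0.64 to 0.65).

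On the scales that set array brightness aside, PPDK was lower with ascorbate in each of the 3 pairs. How many other features were lower in every pair was not computed. Among features with no zero, PPDK was at the 25.1st percentile of the normalized differences and the 16.5th of the rank differences. Its rank lay between the 64.7th and the 83.2nd percentile with staurosporine and between the 45.7th and the 71.2nd with ascorbate, and ascorbate arrays 2 and 6 lay above the lowest staurosporine array. The rank differences were −16.8, −11.9 and −12.3 percentile points (mean −13.7 ± 2.72 SD, n = 3). The normalized log2 differences were −0.77, −0.49 and −0.51, and the estimate over 12 arrays was −0.59 ± 0.20 (SE, 95% interval −1.02 to −0.16). Its interval was −1.08 to −0.10 over pair averages and −0.86 to −0.32 with a block for the array number, which counts consecutive arrays as separate. With consecutive arrays as a random block it was −1.27 to 0.097. Within the ascorbate group consecutive arrays differed by an SD of 0.46 log2 units, against 0.22 among staurosporine arrays. RefSeq lists 7 transcripts for PPDK, 3 for NADP-MDH and 1 for PRK, and the probe annotation names a gene and no transcript, so the chloroplast and cytosolic forms of PPDK were not separated.

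**Figure D3:**
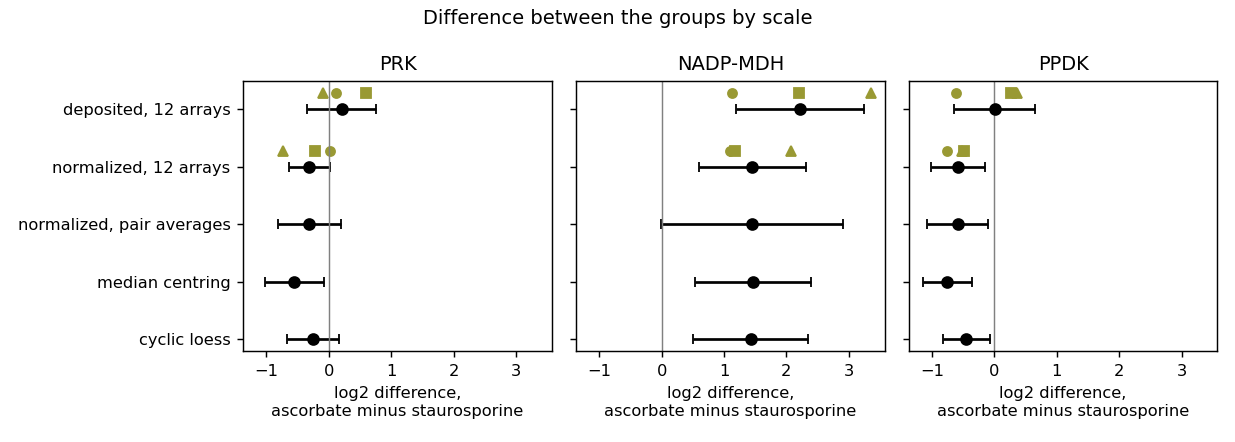
Log2 difference between the groups, ascorbate minus staurosporine (horizontal axis), for the 3 genes by scale and fit; black points are limma estimates with 95% intervals, and the coloured circle, square and triangle are the differences of arrays 1 and 2, 3 and 4, and 5 and 6. NADP-MDH is above 0 on each scale (1.43 to 2.23), whereas PRK runs from −0.56 to 0.21 and PPDK from −0.76 to 0.0048.

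The ratio of a pair of genes within an array, from deposited intensities, is unchanged when an array is scaled by a common factor. A shift between arrays that varies with intensity stays in it, so its difference between the groups is read on the deposited scale only. The log2 ratio of NADP-MDH to PPDK was higher with ascorbate by 1.73, 1.94 and 2.99 in the 3 pairs (mean 2.22 ± 0.68 SD, n = 3). It was −3.17 to −1.16 on the staurosporine and −0.34 to 0.81 on the ascorbate arrays, with no overlap. The log2 ratio of NADP-MDH to PRK was higher by 1.01, 1.61 and 3.44 (mean 2.02 ± 1.27 SD, n = 3). It too did not overlap, with −3.78 to −0.81 on the staurosporine and −0.28 to 0.59 on the ascorbate arrays. NADP-MDH already had no overlap by itself, so these gaps are no separate result. How many other gene ratios lack overlap was not computed. The ratio of PRK to PPDK differed by 0.72, 0.33 and −0.45 (mean 0.20 ± 0.60 SD, n = 3), with both signs among the pairs. The transcripts of the thioredoxin-activated enzymes, PRK and NADP-MDH, thus moved unequally on the deposited scale in each pair of arrays. After normalization their differences were also unequal, at 1.10, 1.18 and 2.07 for NADP-MDH against 0.013, −0.21 and −0.73 for PRK. The size of a ratio of different probes has no meaning, and only its difference between groups is read here.

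Over all 3438 features, 355 had a higher normalized difference than NADP-MDH (89.7th percentile) and 670 a higher deposited one (80.5th percentile), counts that include features whose zeros were set to the floor. Among the 2540 features with no zero, 89 had a higher normalized difference than NADP-MDH, which put it at the 96.5th percentile, with PRK at the 37th and PPDK at the 25.1st. On the deposited scale the corresponding percentiles were 96.4, 37.8 and 29.7. The median deposited difference of these features was 0.49 log2 units, so relative to it NADP-MDH was 1.74 higher, PRK 0.28 lower (−0.28) and PPDK 0.49 lower (−0.49). By rank within the array, 78 of the 2540 had a larger upward shift than NADP-MDH, and PRK was at the 28.7th and PPDK at the 16.5th percentile. Among all 3438 features the median deposited difference was 0.72.

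**Figure D4:**
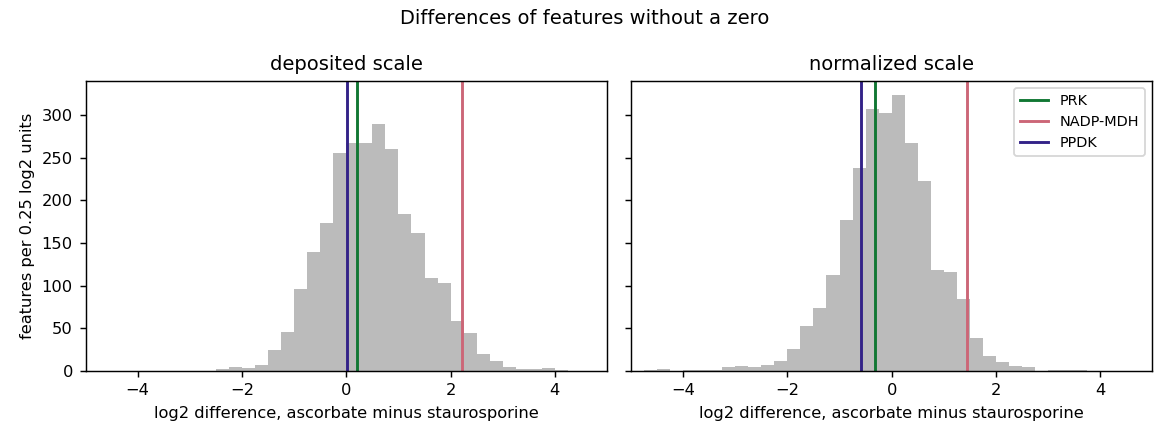
Number of features (vertical axis) per bin of 0.25 log2 units of the difference between ascorbate and staurosporine (horizontal axis), for the 2540 features with no zero, on the deposited and the normalized scale. Lines mark the 3 genes; NADP-MDH lies at 2.23 and 1.45, at the 96.4th and 96.5th percentile, and PRK and PPDK lie below the median of 0.49 on the deposited scale.

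The named genes whose normalized values over the 12 arrays were most like those of each gene were found by Pearson correlation among 508 other named loci with no zero. For NADP-MDH these were AT3G56130 (r = 0.96), AT5G63830 (r = 0.92) and AT1G10310 (r = 0.90), and no other of the 508 passed 0.9. AT3G56130 read 0.129 to 0.381 with staurosporine and 0.497 to 0.574 with ascorbate, and within the groups its correlation with NADP-MDH was 0.93. AT5G63830 read 0.107 to 0.452 and 0.593 to 0.696, and AT1G10310 read 0.214 to 0.77 and 0.884 to 1.35. All 3 thus had ascorbate readings above their staurosporine readings, as NADP-MDH had. A choice by correlation over both groups favours genes that share its group difference, so this is no separate result. Over all features, 13% had such a gap in deposited intensity.

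The closest patterns to PRK were less alike, at r = 0.81 for AT2G46220, 0.78 for AT1G49870 and 0.77 for AT2G28540. AT2G46220 read 8.47 to 23.6 with staurosporine and 3.51 to 12.5 with ascorbate, overlapping ranges of which the ascorbate one lay lower. For PPDK they were AT3G09250 (r = 0.87), AT4G04370 (r = 0.79) and AT3G06200 (r = 0.76). AT3G09250 read 0.478 to 1.13 with staurosporine and 0.32 to 0.612 with ascorbate. These correlations are a description of 12 arrays that share a common scale and are not independent, and the highest of 508 values is large by selection.

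Other genes of the same pathways came from 4 lists with 78 loci (Calvin-Benson cycle, plastid thioredoxin system, malate and pyruvate metabolism, other thioredoxin targets), of which 3 had a single-gene probe. A further 7 were on probes listed with several genes and were not used. SBPASE, which regenerates the cycle's sugar phosphates upstream of PRK and is itself thioredoxin-activated, was listed at 0 on all 12 arrays and thus gave no reading to test. The other 2, FTRB and NTRC, did not pass the limma test (adjusted p under 0.05 over all 3438 features), nor had either an unadjusted p under 0.05, where 28.1% of all features passed the adjusted threshold. FTRB, a subunit of the ferredoxin-thioredoxin reductase that reduces thioredoxin in the light, read 0.0349 to 0.171 with staurosporine and 0.0854 to 0.259 with ascorbate. Its log2 difference was −0.72 after normalization (limma adjusted p = 0.563), against 0.96 for deposited intensities (limma adjusted p = 0.0704), so its sign depended on the scale. NTRC, an NADPH-dependent thioredoxin reductase of chloroplasts, read 0.222 to 0.577 and 0.213 to 0.539. Its difference likewise took either sign, at −0.49 after normalization (limma adjusted p = 0.258), against 0.30 for deposited intensities (limma adjusted p = 0.44). The readings of both overlapped between the groups. Over all features, 13% had every ascorbate reading above every staurosporine reading, as NADP-MDH had, so this overlap does not set FTRB and NTRC apart. No gene of the list on malate, pyruvate and phosphoenolpyruvate metabolism had a probe of its own, so neither the PPDK regulatory proteins nor the other malate dehydrogenases and malic enzymes could be set beside these values.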

How the data were processed

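The deposited values are intensities on a linear scale from 0 to 100. How the authors scanned, background-corrected or normalized them is not given in the sources used here. Probes were named through the platform annotation by Entrez number, against TAIR10.1 symbols. Of 692 probes with 1 gene, 690 matched, to 689 loci. Each zero took the smallest positive value on its array, log2 was taken, arrays were quantile-normalized, and probes of 1 locus averaged (3438 features). The comparison used lmFit and eBayes of limma 3.58.1 (R 4.3.3) with Benjamini-Hochberg adjustment. The fit was also run on simulated data in which every array was drawn independently. That run cannot show how the fit behaves when consecutive arrays are alike, as they are here. Deviations of same-numbered arrays from their group means correlated across features at 0.106 to 0.347. The array number was taken as a pairing in the replicate block and in the differences by array number or pair, from the data and not the labels. Correlations of differently numbered arrays were not computed, so this pairing is an assumption. The replicate block counts consecutive arrays as separate, and its intervals may be too narrow. The main fit had no block. Named genes were the 3 members, the measured genes of the 4 lists and the 3 loci most correlated with each member. Members and lists were chosen with earlier results of these data known. Intervals and p-values cover the differences among arrays only, which may be technical, and 6 arrays per group limit the precision.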

Additional observations from a re-analysis of the deposited data

How the results depend on the processing

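The differences of the 3 genes kept their sign under median centring, cyclic loess, a pseudocount, each array left out, and a filter that dropped the dimmest 25% of features. Without any 1 array the log2 difference was 1.22 to 1.63 for NADP-MDH, −0.40 to −0.23 for PRK and −0.69 to −0.47 for PPDK. The replicate block, pair averages and the random block leave these estimates as they are (1.45, −0.31 and −0.59) and change their intervals, and the replicate block, with 432 features called higher and 417 lower, moved no count by over 1.5 times. Without normalization the differences were 2.23, 0.21 and 0.0048. By rank they were 28.4, −7.22 and −13.7 percentile points. Over all features 480 were called higher and 486 lower in limma, against 1093 and 208 on the deposited scale, 31 and 22 over pair averages, 296 and 262 with consecutive arrays as a random block, and 302 and 294 without arrays 5 and 6 of both groups. Median centring gave 755 lower, and single arrays left out 405 to 479 higher and 388 to 498 lower. Of the related genes 0 passed in limma with any 1 array left out. SBPASE, 1 of them, passed on the deposited scale and after median centring, where its zeros differ between groups through the floor alone. In none of 18 checks (3 genes, 2 groups, 3 scales) did 1 array stand apart from the other 5 by Dixon's criterion. The criterion looks for a single array and can miss a pair of consecutive arrays that stand apart together. On staurosporine arrays 5 and 6 NADP-MDH read 0.0482 and 0.0539, against 0.125 to 0.33 on the others of that group. PPDK read 0.78 and 1.05 on staurosporine arrays 1 and 2, against 0.357 to 0.483 on the others.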
